A study of Mus musculus with 65 samples.

Results

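The Stat genes encode signal transducers and activators of transcription, and 6 of them are described here in single hematopoietic stem cells of old mice: Stat2, Stat3, Stat4, Stat5a, Stat5b and Stat6. They were taken as a gene family by symbol, and all 6 were found among the 18036 gene identifiers of the deposited table. Each had a count in at least 1 cell, as did 6826 genes of the table.

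STAT proteins wait in the cytoplasm until a cytokine receptor and its JAK kinase phosphorylate them, and then enter the nucleus as dimers and bind DNA. STAT5A and STAT5B act downstream of thrombopoietin and other growth factors of blood stem cells, and STAT3 downstream of the interleukin-6 family. STAT2 works with IRF9 in the type I interferon response, STAT4 follows interleukin-12, and STAT6 follows interleukin-4 and interleukin-13.

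The cells came from mice older than 20 months of the strain SCL-tTAxH2B-GFP, in which an SCL-driven transactivator controls a histone H2B-GFP reporter, so the label can mark only cells in which that driver was active. Label-retaining cells were the GFP-positive ones, which have divided little since the label was switched off, and non-label-retaining cells were GFP negative. Both groups were sorted one by one from lineage-depleted bone marrow as long-term stem cells, which have Sca-1, Kit and CD150 on their surface, lack Flk2 and CD48 and have little or no CD34. Both were then kept overnight without growth factors at 3% oxygen before full-length polyA cDNA was made. There were 37 label-retaining cells (9, 9, 10 and 9 in repeats 1 to 4) and 28 non-label-retaining cells (8, 4, 6 and 10). The sources used here do not say which animals made up a repeat.

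The total estimated count of a cell ran from 27954 to 20516069 in label-retaining cells (median 264894) and from 86 to 661078 in non-label-retaining cells (median 118056). The genes detected per cell averaged 1924 ± 446 in label-retaining and 1090 ± 277 in the other cells (SD over 4 repeats each). Of 15 stem cell markers, 8 were in the table and 7 had a count, in 33 of 37 label-retaining cells and 22 of 28 non-label-retaining ones. They took 0.0910 to 0.218% of the counts of a label-retaining repeat and 0.000669 to 0.420% of a non-label-retaining repeat. Slamf1, the gene of CD150, was listed at 0 in every cell, as were Cd48 and Flt3. Erythroid genes took 0.00389 to 7.38% of the counts of a label-retaining repeat and 0.239 to 2.39% of a non-label-retaining repeat. Monocyte and macrophage markers had counts in 10 label-retaining cells and 0 of the others and took at most 0.00920% of a repeat's counts, with Csf1r and Ccr2 at 0. B cell markers had counts in 13 label-retaining cells and 8 of the others, took up to 0.668% of a label-retaining repeat and up to 0.00564% of a non-label-retaining repeat, and Ebf1 was at 0. Pecam1, the single endothelial marker in the table, had counts in 20 and 6 cells and took 0.00477 to 0.0357% of a label-retaining repeat and 0 to 0.00572% of a non-label-retaining repeat. Dendritic cell markers had counts in 23 label-retaining cells and 12 of the others, with Itgax at 0. They took up to 0.00668% of a label-retaining repeat and up to 0.00517% of a non-label-retaining repeat. The part of these markers in the results below was not tested.

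Several libraries resembled each other far more than single cells of this series usually did. Over the 2080 pairs of cells the median Pearson correlation of log2(counts per 100000 + 1) was 0.339, and 3 sets of libraries exceeded 0.9. Label-retaining cell 3 and non-label-retaining cell 3, of opposite groups, correlated at 0.963. Their totals stood in a ratio of 60.3, their Stat2 counts in a ratio of 59.2 and their Stat3 counts in a ratio of 60.4. Label-retaining cells 20, 21 and 22 correlated at 0.95 to 0.987, and non-label-retaining cells 13 and 14 at 0.910. Detection, levels, and how often Stat genes occurred together are therefore given also with each set inside a group counted as 1 cell and the set of opposite groups left out.

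Stat5a, Stat5b and Stat3 lie side by side on mouse chromosome 11 (build GRCm38). Stat5b occupies positions 100780731 to 100859004 on the minus strand, Stat5a 100859351 to 100885169 on the plus strand, and Stat3 100886806 to 100939594 on the minus strand. Stat5b and Stat5a thus point away from each other with 346 bases between them, and 1636 bases separate Stat5a from Stat3. Stat6 (127642955 to 127660987) and Stat2 (128270498 to 128292853) both lie on the plus strand of chromosome 10, 609510 bases apart. Stat4 lies on the plus strand of chromosome 1 (51987106 to 52107189). Values are given for whole genes, with no split into exons, introns or UTRs.

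Sequence decides how far reads of these genes can be told apart, so the coding sequences of Stat5a and Stat5b (GENCODE annotation of GRCm38) are shown where they are the same and where they differ most. Their coding sequences were identical at 90.7% of aligned bases, against 58.3 to 65.3% for the other 14 pairs of the 6 genes. The longest stretch that both hold runs for 324 bases from coding base 571 of each gene, and a read inside it fits both. Its first 60 bases are given first, followed by the 60 aligned coding bases with the most differences (bases 85 to 144 of each), with the 19 differing bases in capitals.
Stat5a and Stat5b: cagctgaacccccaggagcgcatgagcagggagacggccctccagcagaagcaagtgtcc
Stat5a: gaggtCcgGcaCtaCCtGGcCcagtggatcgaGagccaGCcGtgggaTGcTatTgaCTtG
Stat5b: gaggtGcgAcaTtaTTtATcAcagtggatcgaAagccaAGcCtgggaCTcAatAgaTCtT

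Of all stretches of 50 bases in the transcripts of a gene, 15.2% of those of Stat5a and 11.1% of those of Stat5b also occurred in another gene. The share was 0.364% for Stat3 and 0% for Stat2 and Stat6, so their counts carry little of this uncertainty. For Stat4 it was 27.1%, all of it shared with the gene model Gm28177, and the values of Stat4, Stat5a and Stat5b are uncertain to that extent.

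STAT dimers bind the letters TTCNNNGAA, and STAT6 also TTCNNNNGAA, both of which read the same on either strand. Neither stood in the 250 bases before the start sites of Stat3, Stat4, Stat5a, Stat5b or Stat6 in the RefSeq promoter table (GRCm38.p6), while 7.02% of all 32851 windows held the first and 5.85% the second. The window of Stat2 held the second, shown because it is the only match, in capitals on the plus strand, beginning 210 bases before the start. This match of letters is a description and no site of binding.
Stat2, chr10:128270278-128270307: tcagtttcctTTCCCTAGAActcacggttc

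Stat6 and Stat3 were detected in more label-retaining cells in every repeat, whereas Stat5a was detected about as often in both groups. A gene was called detected in a cell when its count was above 0. Stat6, which carries the interleukin-4 signal, had counts in 18 of 37 label-retaining cells and in 0 of 28 non-label-retaining cells. Stat3, which carries that of the interleukin-6 family, had counts in 23 of 37 and 4 of 28. Stat2 was detected in 9 and 1 cells, Stat4 in 7 and 1, Stat5a in 12 and 7, and Stat5b in 10 and 3. Detection of genes in general leaned the same way: 93.5% of the 3489 genes detected in at least 10 cells had the larger mean share in label-retaining cells, with a median difference of 19.4 percentage points.

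**Figure D1:**
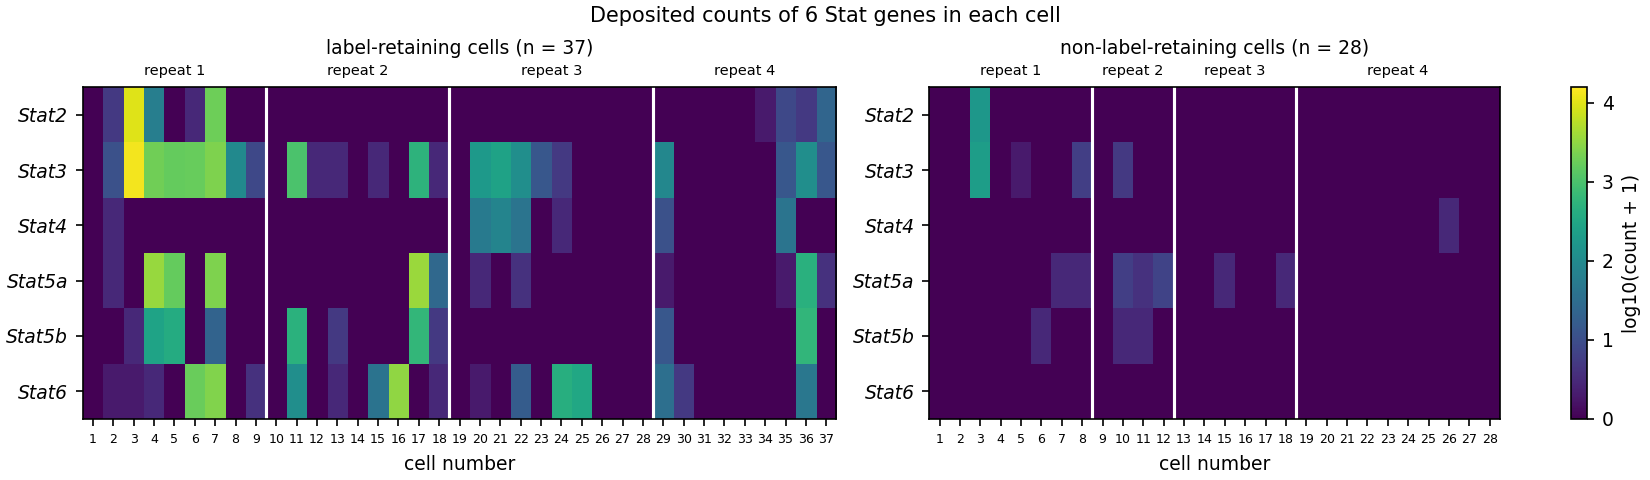
Estimated counts of the 6 Stat genes, as log10(count + 1) in colour, in each of 37 label-retaining cells (left) and 28 non-label-retaining cells (right). Columns are cells in order of repeat, with white lines between repeats. Bright columns are frequent in the left panel, and the brightest of the right panel is non-label-retaining cell 3.

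Stat6 was detected in 6 of 9, 5 of 9, 4 of 10 and 3 of 9 label-retaining cells of repeats 1 to 4, and in 0 of 8, 0 of 4, 0 of 6 and 0 of 10 non-label-retaining cells. The 2 groups of shares did not overlap. The share averaged 48.9% ± 15.1 in label-retaining cells and 0% in the others (SD, n = 4 repeats each, two-sided exact permutation p = 0.0286, the smallest that 4 against 4 can give). After Benjamini-Hochberg adjustment over the 3489 genes the p of this exact test was 0.337, so Stat6 did not pass the adjusted threshold. The family and the tests were chosen with earlier results for Stat6 known, so these p-values are no independent support. With repeats of the same number paired, exact sign flips gave p = 0.125, the smallest they allow. With 0 of 28 cells, a share of up to 10.7% remains possible by counting error alone.

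The counts of Stat6 in its 18 label-retaining cells spanned 1 to 3134, with a median of 24.5. Of these cells 8 had under 10 counts, 4 had 10 to 99 and 6 had 100 or more. The 6 high cells came from repeats 1, 2 and 3: cells 6 and 7 with 1739 and 2534 counts, cells 11 and 16 with 120 and 3134, and cells 24 and 25 with 427 and 313. Cell 25 was the shallowest label-retaining library, with a total of 27954, so its Stat6 stood at 11197 CPM, counts scaled to 1e6 per cell. Cells 6, 7, 11 and 16 had totals of 1610478, 4171121, 2784363 and 1679510, all above the deepest non-label-retaining library (661078). The total of cell 24 was 118848. The deepest library of all, label-retaining cell 3, held 1 count of Stat6. The part of depth in these counts was not tested.

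Stat3 was detected in 8 of 9, 6 of 9, 5 of 10 and 4 of 9 label-retaining cells of repeats 1 to 4. In non-label-retaining cells it was detected in 3 of 8, 1 of 4, 0 of 6 and 0 of 10. The lowest label-retaining share, 44.4%, lay above the highest non-label-retaining share, 37.5%. The means were 62.5% ± 20.0 and 15.6% ± 18.8 (SD, n = 4 each, exact permutation p = 0.0286; 0.337 adjusted over all 3489 genes; 0.125 by exact sign flips with the repeats paired). Of the 23 label-retaining cells with Stat3, 11 had 100 counts or more, and the median count was 96. Of the 4 non-label-retaining cells, 3 had 1, 4 and 5 counts, and the other was cell 3 with 218.7.

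Shares that do not overlap between the groups were found for 296 of the 3489 genes with the higher share in label-retaining cells (8.48%) and for 0 with the lower (0.0%; the smallest adjusted p of the exact test was 0.337). Stat3 and Stat6 are 2 of the 5 Stat genes that could be tested. By the size of the difference Stat6 exceeded 98.9% and Stat3 98.2% of all genes tested, Stat2 58.0%, Stat5b 28.3% and Stat5a 5.90%. Stat6 entered the genes tested through label-retaining cells alone, and the family was chosen with earlier results for Stat6 known. These ranks are therefore a description and no independent support.

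**Figure D2:**
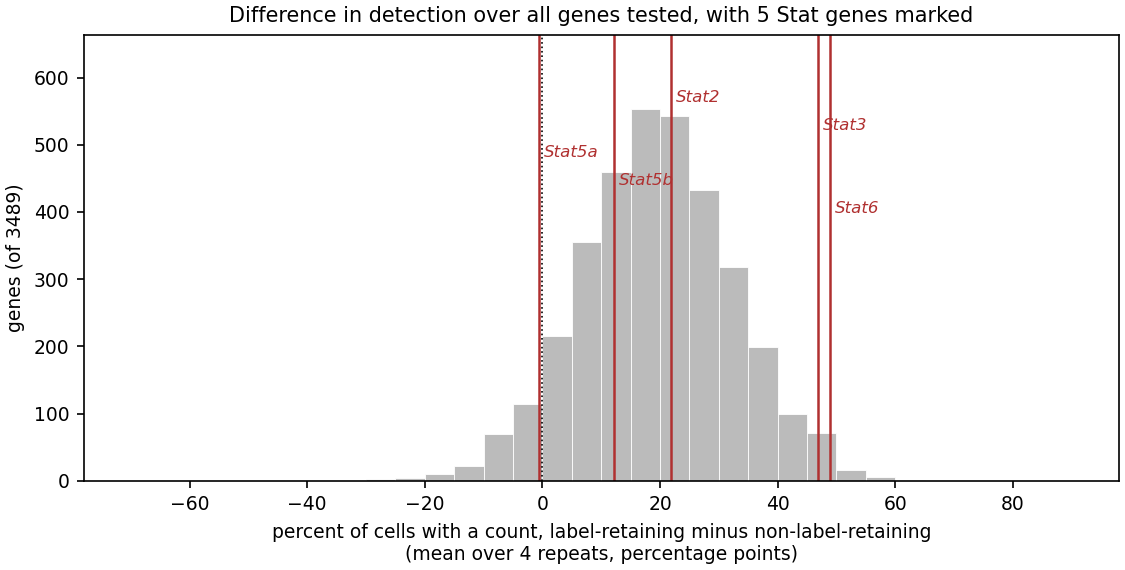
Histogram of the difference in mean detection share, label-retaining minus non-label-retaining, in percentage points, over the 3489 genes detected in at least 10 cells. Red lines mark the 5 Stat genes tested: Stat3 (46.9) and Stat6 (48.9) lie at the right edge, Stat2 (21.9) and Stat5b (12.2) on either side of the median of 19.4, and Stat5a (-0.56) near 0, marked by a dotted line.

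Stat5a and Stat5b, the STATs of growth factor signalling, did not differ beyond the spread between repeats. Stat5a was detected in 4, 2, 2 and 4 label-retaining cells of repeats 1 to 4, and in 2, 3, 2 and 0 non-label-retaining cells. The share averaged 32.8% ± 13.5 in label-retaining cells and 33.3% ± 31.2 in the others (SD, n = 4 each, exact permutation p = 1). Non-label-retaining repeat 2, with 3 of 4 cells, was the highest of all 8 shares. Without repeat 2 the difference was 16.9 points, with the larger share in label-retaining cells. Stat5b was detected in 4, 4, 0 and 2 label-retaining and in 1, 2, 0 and 0 non-label-retaining cells, 27.8% ± 21.3 and 15.6% ± 23.7 (exact permutation p = 0.486).

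The raw counts behind these shares were unlike. All 7 non-label-retaining cells with Stat5a had 2 to 6 counts, and all 3 with Stat5b had 2. Among label-retaining cells 6 of 12 had at least 10 counts of Stat5a, up to 3717.7, and 7 of 10 had at least 10 of Stat5b, up to 592. At this higher bar 0 non-label-retaining cells remained for either gene, and the differences were 16.7 points for Stat5a and 19.4 for Stat5b (exact permutation p = 0.143 for both). Over all genes at 10 counts or more, 425 (12.2%) separated the groups with the higher share in label-retaining cells.

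Stat2, the interferon STAT, was detected in 5, 0, 0 and 4 label-retaining cells of repeats 1 to 4. In non-label-retaining cells it was detected in 1, 0, 0 and 0. The means were 25.0% ± 29.2 and 3.13% ± 6.25 (SD, n = 4 each, exact permutation p = 0.429), so repeats 2 and 3 had none in either group. The non-label-retaining cell with Stat2 was cell 3, with 165.3 counts. Label-retaining cell 3, its near copy, held 9793.7 counts, 83.0% of all Stat2 counts of its group.

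Stat4, the interleukin-12 STAT, was detected in 8 cells, too few for the test. Label-retaining cells of repeats 1 to 4 gave 1, 0, 4 and 2 of them and non-label-retaining repeat 4 gave 1, with 2 counts. Label-retaining cells 20, 21 and 22, which resembled each other, held 50, 77 and 40 of the 222 Stat4 counts of their group. Counted as 1 cell they left 5 of 34 label-retaining cells with Stat4, against 1 of 26 non-label-retaining cells.

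With the alike libraries counted once or left out, Stat6 was detected in 16 of 34 label-retaining cells and 0 of 26 non-label-retaining ones, and Stat3 in 20 and 3. Both had an exact permutation p of 0.0286. By the same measure 8.2% of all genes separated the groups with the higher share in label-retaining cells and 0.0287% the other way. Stat2 was then seen in 8 of 34 label-retaining cells and 0 of 26 non-label-retaining ones.

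Depth moved with these results. In label-retaining cells the median total was 543134 in cells with Stat6 and 242202 in cells without it, and the median number of genes detected was 2527.5 and 1372. For Stat3 the median totals were 544853 and 215927, and the genes detected 2573 and 1023.5. In non-label-retaining cells the 4 with Stat3 had a lower median total (72246) than the 24 without it (144519) and more genes detected (1276.5 and 894). Each cell was therefore thinned at random to 10000 counts, without the 4 non-label-retaining cells below that total.

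After thinning, Stat6 was detected in 3, 2, 2 and 2 of the label-retaining cells of repeats 1 to 4, and in 0 of 24 non-label-retaining cells, where up to 12.5% remains possible. The means were 24.4% ± 6.02 and 0% (SD, n = 4 each, exact permutation p = 0.0286), and 2.44% of the 3489 genes separated the groups in this direction and 0.0573% in the other. The p was 0.0286 also at 5000 and 20000 counts. With the other group at 0, it cannot differ while each label-retaining repeat keeps a positive cell. Stat3 was detected in 5, 1, 5 and 1 label-retaining cells, against 2, 1, 0 and 0 non-label-retaining cells, and its shares then overlapped. Its means were 31.9% ± 24.2 and 15.5% ± 18.0 (exact permutation p = 0.343). Averaged over all possible draws at 10000 counts, the expected shares of Stat3 were 44.6% ± 22.6 and 11.3% ± 13.4 (exact permutation p = 0.0571) and those of Stat6 23.4% ± 4.51 and 0% (p = 0.0286). By expected shares 4.61% of all genes separated the groups in this direction and 0.115% in the other.

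The other 4 genes were scarce in thinned cells. Stat5a was left in 8 label-retaining and 4 non-label-retaining cells, Stat5b in 6 and 1, Stat2 in 5 and 1, and Stat4 in 1 and 0. None of Stat2, Stat5a and Stat5b separated the groups (exact permutation p of 0.429, 1 and 0.657).

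**Figure D3:**
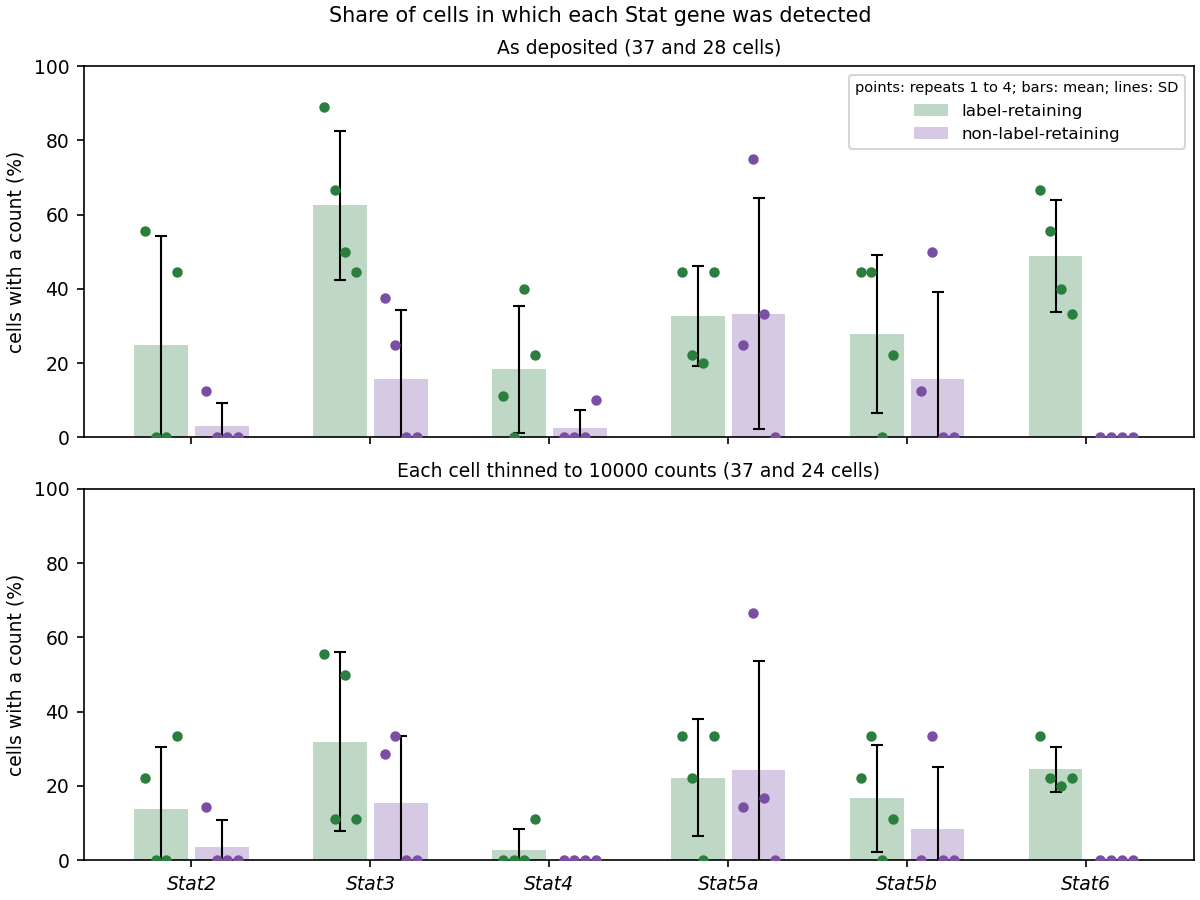
Percent of cells with a count of each Stat gene, per repeat (points), with the mean over 4 repeats (bars) and SD (lines), label-retaining in green and non-label-retaining in purple. The upper panel uses the deposited counts and the lower panel cells thinned to 10000 counts. In both panels every label-retaining point of Stat6 lies above the non-label-retaining points, which are all at 0.

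Levels summed over cells varied widely between repeats. CPM here is the summed count of a gene scaled to a total of 1e6 for the same repeat and group, and such a sum does not tell more positive cells from more RNA per cell. Stat6 stood at 126.8, 279.5, 247.2 and 48.9 CPM in label-retaining repeats 1 to 4, against 0 in all 4 non-label-retaining sums. Over all cells of a group the level was 167.3 CPM in label-retaining cells. With a floor of 3 counts in the 4861370 of all non-label-retaining cells (0.617 CPM), that is 271-fold the floor. The floor covers counting error only, while 1 positive label-retaining cell held up to 3134 counts. It therefore sets no lower limit on the fold difference. The ratio to the floor also depended on single cells: it was 176-fold without label-retaining cell 16 (108.6 CPM) and 458-fold without label-retaining cell 3 (282.6 CPM).

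Stat3 stood at 621.1, 129.8, 186.6 and 138.8 CPM in label-retaining repeats, against 217.7, 20.5, 0 and 0 CPM in non-label-retaining repeats. Cell 3 of each group supplied most of repeat 1. Stat5a stood at 228.5, 317.3, 1.63 and 282.4 CPM against 3.88, 71.8, 2.14 and 0 CPM, with the larger value in the label-retaining sum in 3 of 4 repeats. Stat5b stood at 20.3, 91.9, 0 and 349.8 CPM against 1.94, 20.5, 0 and 0 CPM. Stat2 stood at 348.6, 0, 0 and 20.3 CPM in label-retaining repeats, against 160.2, 0, 0 and 0 CPM, and Stat4 at 0.0592, 0, 55.2 and 30.4 CPM, against 0, 0, 0 and 1.13 CPM. For Stat3, Stat5a, Stat5b, Stat2 and Stat4 the ranges of the groups overlapped.

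The edgeR quasi-likelihood test on the 8 sums called none of the 5 Stat genes it could test, and 0 of 2786 genes in all (0.0% in each direction), and without adjustment 180 genes (6.46%) were higher and 122 (4.38%) lower at p under 0.05. The log2 fold change, label-retaining over non-label-retaining, was 4.38 ± 2.61 for Stat5b, 3.06 ± 2.26 for Stat5a, 1.94 ± 2.09 for Stat3 and 0.80 ± 2.25 for Stat2 (± SE, n = 4 each). With a repeat or a sum left out, where testable, Stat5b ranged from 1.64 to 7.12 and Stat5a from 1.80 to 4.99. Stat3 ranged from 1.10 to 5.08 and Stat2 from -0.22 to 1.16. Stat5b could not be tested without repeat 1 or 2, or without the label-retaining sum of either. Stat2 could not be tested without repeat 1 or 4, the label-retaining sum of either, or non-label-retaining repeat 1. With all sums kept, the median over all genes tested was 1.15. The adjusted p from edgeR was 0.486 for Stat5b, 0.553 for Stat5a, 0.654 for Stat3 and 0.847 for Stat2. For Stat6, with no count in any non-label-retaining sum, edgeR gave an unadjusted p of 0.00264 and an adjusted p of 0.326. DESeq2 called Stat6 (adjusted p = 0.0269) among 11 genes, 6 higher (0.215%) and 5 lower (0.179%). It did not call Stat3, Stat5a or Stat5b, and it gave no p for Stat2.

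With the alike libraries counted once or left out, the log2 fold change of Stat3 was 4.36 ± 2.21 (edgeR adjusted p = 0.315). Over all cells it was 1.94 ± 2.09. Stat2 then had counts in fewer than 10 cells and was not tested.

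Per kilobase of the longest coding transcript, the summed levels in label-retaining cells were 53.4 ± 36.5 CPM per kilobase for Stat5a, 46.5 ± 28.4 for Stat6, 44.5 ± 39.1 for Stat3, 22.2 ± 30.9 for Stat5b, 21.0 ± 38.9 for Stat2 and 7.18 ± 8.95 for Stat4 (SD, n = 4). No step between neighbours in this order exceeded the larger of their SDs. In non-label-retaining cells they were 9.86 ± 17.5 CPM per kilobase for Stat3, 9.11 ± 18.2 for Stat2, 5.00 ± 8.98 for Stat5a, 1.08 ± 1.91 for Stat5b, 0.0950 ± 0.190 for Stat4 and 0 for Stat6, and again no step exceeded the larger SD.

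The number of Stat genes in a cell was then counted. In label-retaining repeats 1 to 4 a cell held 3.11, 1.89, 1.5 and 2.11 of the 6 genes on average, and in non-label-retaining repeats 0.875, 1.5, 0.333 and 0.1. The means were 2.15 ± 0.687 and 0.702 ± 0.623 (SD, n = 4 each), a ratio of 3.07, and label-retaining cells had the higher value in 4 of 4 repeats, although the lowest label-retaining value and the highest non-label-retaining value were both 1.5. The same ratio for all genes of the table was 1.76, which is not matched to how widely the Stat genes are detected. By difference in share Stat6 and Stat3 exceeded 98.9 and 98.2% of the genes tested, but Stat2, Stat5b and Stat5a 58.0, 28.3 and 5.90%. The limits given above for these ranks hold here too. After thinning the means were 1.12 ± 0.424 and 0.518 ± 0.594, a ratio of 2.16 beside 1.51 for all genes, and 3 of 4 repeats had the higher value in label-retaining cells. Repeat 2 lay the other way, at 0.889 in label-retaining cells and 1.33 in non-label-retaining cells. No p was computed for this score over the 6 genes.

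Of the label-retaining cells, 20 of 37 (54.1%) had 2 or more Stat genes, against 4 of 28 non-label-retaining cells (14.3%). After thinning the numbers were 12 of 37 (32.4%) and 3 of 24 (12.5%), and with the alike libraries counted once or left out 17 of 34 and 3 of 26. At 4 or more genes the numbers were 10 of 37 and 0 of 28. No cell held all 6. Label-retaining cells with 0, 1, 2, 3, 4 and 5 Stat genes had a median of 978, 1258, 2482, 2073, 2721 and 2998 genes detected. In non-label-retaining cells the median was 766, 1067 and 2137 genes at 0, 1 and 2 Stat genes, and the single cell with 3 had 971. More genes were thus detected where more Stat genes were, but not at every step.

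**Figure D4:**
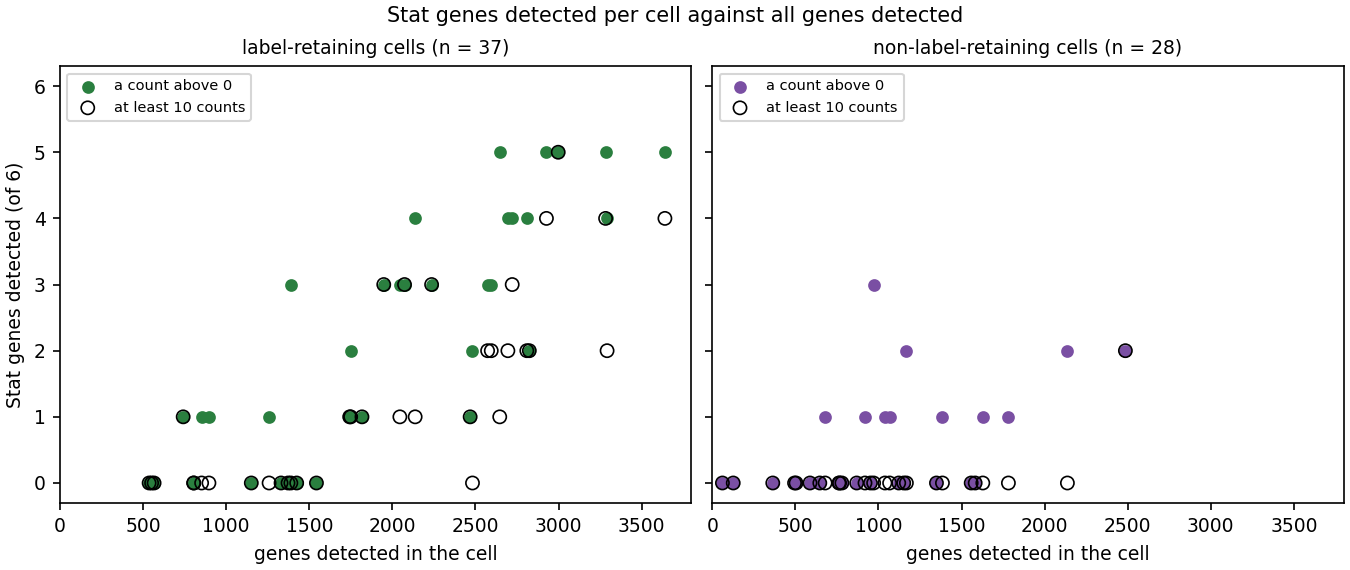
Number of Stat genes detected in a cell (of 6) against all genes detected in that cell, for 37 label-retaining (left) and 28 non-label-retaining cells (right). Filled points count genes above 0 counts, and open circles those with at least 10. Cells with 4 or 5 Stat genes, all label-retaining, lie in the right part of the left panel, and 27 of 28 open circles on the right lie at 0.

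Of 24 label-retaining cells that held another Stat gene, 20 also held Stat3 and 4 did not. All 12 label-retaining cells with Stat5a, all 10 with Stat5b and all 7 with Stat4 also had Stat3, as did 15 of 18 with Stat6 and 8 of 9 with Stat2. The background for such nesting is not small. Of the 205 other genes tested that were detected in 12 label-retaining cells, 11.7% lay wholly within the 23 cells with Stat3, as did 20.5% of the 190 genes detected in 10 cells and 32.7% of the 113 in 7 cells. The median gene of these sets had 83.3, 90 and 85.7% of its cells among those with Stat3. For genes in as many cells as Stat6 and Stat2 the median was 83.3 and 88.9%, the same as for Stat6 and Stat2 themselves. In non-label-retaining cells Stat3 accompanied 2 of 7 cells with Stat5a, 1 of 3 with Stat5b and 0 of 1 with Stat4. The background was computed only for label-retaining cells before thinning. The nesting was not kept in thinned label-retaining cells, where Stat3 itself was left in 12 of 37 cells. There Stat3 accompanied 3 of 8 cells with Stat5a and 3 of 6 with Stat5b. It also accompanied 5 of 9 with Stat6, 2 of 5 with Stat2 and 0 of 1 with Stat4. With the alike libraries counted once or left out it accompanied 11 of 11, 9 of 9, 13 of 16, 7 of 8 and 5 of 5 label-retaining cells in the same order of genes.

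Stat6 and Stat3 were each also found without the other. Label-retaining cells held both in 15 cases, Stat3 alone in 8, Stat6 alone in 3 and neither in 11. Cells 16 and 25, with 3134 and 313 counts of Stat6, held no count of any other Stat gene. Cell 6 held 1739 counts of Stat6 and 1676.7 of Stat3.

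Stat5a and Stat5b were detected together in 7 label-retaining cells, Stat5a alone in 5 and Stat5b alone in 3, with neither in 22. In non-label-retaining cells they were together in 2, Stat5a alone in 5, Stat5b alone in 1 and neither in 20. At 10 counts or more, 5 of the 6 label-retaining cells with Stat5a also had Stat5b. Their amounts did not stand in a fixed ratio. Cell 4 held 3601 counts of Stat5a and 274 of Stat5b, cell 7 held 2482 and 21, and cell 36 held 469 and 574. Cell 11 held 484 counts of Stat5b and none of Stat5a, although 11.1% of the stretches of Stat5b are shared.

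**Figure D5:**
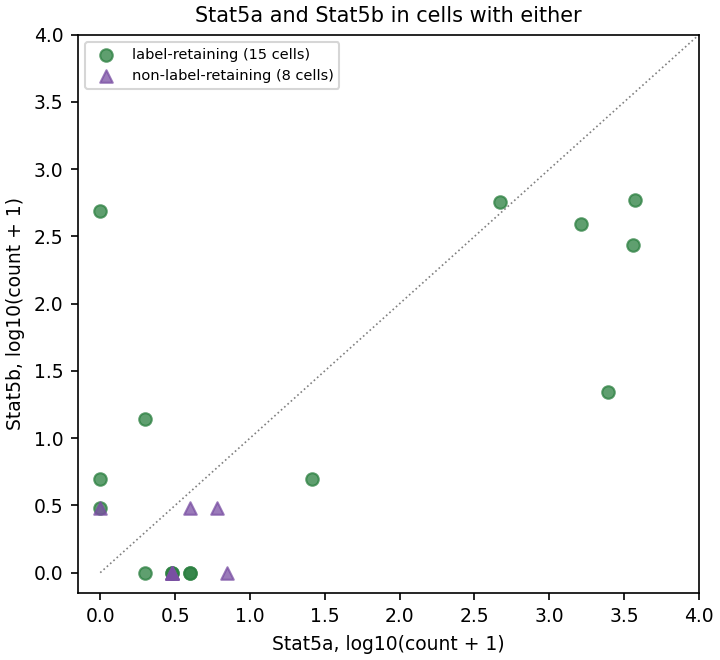
Counts of Stat5a (x axis) and Stat5b (y axis) as log10(count + 1) in the label-retaining cells (circles) and non-label-retaining cells (triangles) with either gene, with a dotted line of equal counts. Triangles lie below 10 counts on both axes, and 5 circles lie at 10 or more on both.

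The genes most like each Stat gene in detection were found by the Jaccard index over the 65 cells, the cells with both genes divided by the cells with either. It was computed against all genes detected in at least 10 cells, which share libraries and depth with the Stat genes. For Stat6 they were Dhx30, an RNA helicase (0.636), Ttc1 (0.586) and Cdc73, a subunit of the PAF1 transcription complex (0.577), where the median of all genes was 0.318. For Stat3 they were Arhgef1, a guanine nucleotide exchange factor (0.774), Prpf39, a splicing factor (0.750), and Wac (0.743), with a median of 0.410. Stat6 and Stat3 reached 0.500 with each other.

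For Stat5a they were Btbd16 (0.609), Ralgapa1, which inactivates Ral GTPases (0.571), and the glycosyltransferase gene B3galnt2 (0.562), with a median of 0.307. For Stat5b they included Txndc17 (0.611) and Pp2d1 (0.500), with a median of 0.233. Stat5a and Stat5b reached 0.391 with each other. For Stat2 they were Ly96, a partner of Toll-like receptor 4 (0.667), Nlrp12 (0.615) and Mta3, a subunit of a chromatin remodelling complex (0.600), with a median of 0.222. No Stat gene was among the 3 most alike of another.

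The genes around the Stat proteins in their pathway were read from lists of 125 genes, of which 46 were in the table, 36 had a count and 24 were detected in at least 10 cells. Of the 24, 21 had the larger share in label-retaining cells (all genes: 93.5%), with a median difference of 15.8 points beside 19.4 for all genes. None of the 24 had shares that separated the groups (exact permutation test, all genes: 8.48%), and of 17 tested by level edgeR called 0, also at an unadjusted p under 0.05. The JAK kinases were not analysed here.

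Of 35 receptors that signal through JAK and STAT, 8 were in the table and 6 had a count. Ifngr1, the ligand-binding chain of the interferon gamma receptor, was detected in 26 of 37 label-retaining cells and 13 of 28 non-label-retaining ones. Il5ra, of the interleukin-5 receptor, was detected in 17 and 9 cells and Il21r in 14 and 5. Il4ra, the receptor chain that engages STAT6, was detected in 9 and 2 cells, and Il6st, the gp130 chain that engages STAT3, in 5 and 0. These last 2 genes were named after their values were seen.

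Of 21 negative regulators, 11 had a count. Pias4, which modifies and restrains STATs, was detected in 31 and 17 cells (exact permutation p = 0.0571). The tyrosine phosphatase gene Ptpn2 was detected in 21 and 16 cells and Socs2, a feedback inhibitor induced by STAT5, in 19 and 8 (exact permutation p of 0.886 and 0.143). Among 3 partners with a count, Hdac2 was detected in 10 and 3 cells, Hdac3 in 9 and 2, and the coactivator gene Ncoa1 in 9 and 3.

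Targets with a count numbered 16 over their 3 lists. Of those of STAT5 and STAT3, the D cyclin genes Ccnd3 and Ccnd2 were detected in 25 and 17 and in 24 and 19 cells, and Bcl2, which prevents cell death, in 18 and 8. In thinned cells Ccnd3 had counts in 16 of 37 and 3 of 24 and separated the groups (exact permutation p = 0.0286, where 2.44% of all genes did). It was the only 1 of the 24 pathway genes tested to do so, in a single random draw. Before thinning its difference was 5.21 points (exact permutation p = 0.686). Of the interferon targets of STAT2, Xaf1 was detected in 22 and 10 cells, Trim25 in 17 and 5 and Rsad2 in 4 and 3. Of the targets of STAT6 and STAT4, Furin, a proprotein convertase, was detected in 21 and 3 cells, a difference of 47.6 points that was positive in 4 of 4 repeats (exact permutation p = 0.0571, 0.377 adjusted over all genes). After thinning it had counts in 13 of 37 and 1 of 24 cells (exact permutation p = 0.0571). Il18r1 was detected in 12 and 6 cells and Fcer2a in 9 and 3.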

How the data were processed

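The deposited table holds an estimated count for each gene in each cell. Per the submitters' processing notes the build was mm10 and DESeq was used; the sources used here do not name the authors' aligner, counter or annotation. Although the authors call the table normalized, the values show no scaling: totals per cell ran from 86 to 20516069, and 65.1% of values above 0 were whole within 0.0001. They were treated as unscaled estimated counts and rounded after summing. The kit marks neither strand nor molecule, so floors cover counting error only, and overlapping genes cannot be told apart by strand.

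Of 18036 identifiers, 16216 matched RefSeq symbols (GRCm38.p6). The repeat was the unit of every test. Detection shares were compared by a two-sided exact permutation test over repeats (scipy 1.17.1) for all 3489 genes detected in at least 10 cells. Counts summed by repeat and group (8 sums) were tested with edgeR 4.0.16 (quasi-likelihood, TMM, R 4.3.3) for 2786 genes with a mean of at least 10 per cell and a count in at least 10 cells. P-values were adjusted by the Benjamini-Hochberg method over all genes tested, with a threshold of 0.05. DESeq2 1.42.0, limma 3.58.1, other scalings and filters, thinning and leaving out repeats were alternatives. Scripts were tested on simulated data.

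Repeat numbers come from the labels. Deviations from the group means correlated at 0.155 to 0.550 between sums of the same number and at -0.260 to 0.139 between sums of different number. The value of 0.550 is that of repeat 1, which holds the alike cells 3 of both groups. All 4 pairs lay above 0.1, but so did label-retaining repeat 4 with non-label-retaining repeat 3 (0.139). The pairing is thus uncertain. The main tests took the repeats as unpaired, and the paired forms were alternatives. Of each pathway list, the 3 genes detected in most cells are named, and of each Stat gene in 10 or more cells the 3 genes with the highest Jaccard index, of which 1 is not reported here. The family, the lists and the tests were chosen with earlier results of these data known, Stat6 among them. Alike libraries, the deepest cell, single cells left out for Stat6 and expected detection were examined after seeing the data.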

Additional observations from a re-analysis of the deposited data

Results flagged for a closer look

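Of 36 sets of 4 repeats examined with Dixon's test, 13 had a highest repeat that stood apart from the others at the 95% level, where chance alone gives about 1 in 20. Most of these sets hold mostly zeros. Stat2 stood apart in label-retaining repeat 1 by summed level (348.6 CPM). Stat2 also stood apart in non-label-retaining repeat 1 by summed level (160.2 CPM), by share of cells (12.5%) and by share after thinning (14.3%), all from cell 3. Stat3 stood apart in repeat 1 of both groups by summed level, at 621.1 CPM in label-retaining and 217.7 CPM in non-label-retaining cells. Stat4 stood apart in label-retaining repeat 4 after thinning (11.1% of cells), and in non-label-retaining repeat 4 by share (10%) and summed level (1.13 CPM). Stat6 stood apart in thinned label-retaining repeat 1 (33.3% of cells). Non-label-retaining repeat 2 stood apart by summed level for Stat5a (71.8 CPM) and Stat5b (20.5 CPM), and by thinned share for Stat5b (33.3%).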

How the results depend on the processing

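No non-label-retaining cell had Stat6, so the sign of its difference could not turn. For the same reason the exact permutation p of 4 against 4 repeats was fixed while each label-retaining repeat kept a positive cell. The settings below are thus no independent tests of Stat6. Its size was 24.4, 21.7 and 24.4 points after thinning to 10000, 5000 and 20000 counts, 23.4 by expected shares and 26.9 at 10 counts or more, with an exact permutation p of 0.0286 in each. The replicate block (48.9 points) gave 0.125 and leaving out a repeat (43.0 to 54.1 points) gave 0.1, the smallest these designs allow. For Stat3 (46.9 points) the block gave p = 0.125 and leaving out a repeat (45.4 to 48.6 points) p = 0.1. Thinning to 10000, 5000 and 20000 counts gave 16.5, 37.3 and 33.3 points and the expected share at 10000 counts 33.3 points, with exact permutation p of 0.343, 0.0571, 0.143 and 0.0571. The block changed no other call. Stat5a changed sign at 10 counts or more (16.7 points), at 5000 counts (13.9), without repeat 2 (16.9) or 3 (3.70) and without the deepest cell (0.83), and ranged from -15.6 to 16.9 points with a repeat left out; the cause was not tested.

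Thinning to 10000 counts moved the difference in Stat genes per cell to 0.602 and the share of label-retaining cells with 2 or more to 32.4%. At 10 counts or more, 3.57% of non-label-retaining cells had 2 or more. Genes with separate shares numbered 85, 75 and 132 after thinning to 10000, 5000 and 20000 counts, 161 by expected shares and 189 without cells under 10000 counts. DESeq2 called 11 genes by level, and limma on rescaled cells with the replicate block 21. The log2 fold change of Stat2 turned to -0.22 without non-label-retaining repeat 2, 3 or 4. It ranged from -0.22 to 1.16 over those repeats or sums left out that kept it testable. By limma on rescaled cells the difference was 0.67 for Stat5b and 0.37 for Stat5a. Of 99 alternative values of the levels of Stat genes, 1 had an adjusted p under 0.05 (Stat6, DESeq2). The DESeq2 value of Stat2 had no p. Low depth limits detection: absence of counts does not show absence of expression.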
